A study of Homo sapiens with 16 samples.

Results

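The 43 genes described here carry out or time DNA replication and mitosis. They were chosen by symbol, as a named set of core cell cycle genes, and all 43 were found among the 33121 entries of the deposited count table. All 43 also passed the filter on low counts, which left 15569 genes for testing. By role they were divided into 13 genes of origin licensing and the replicative helicase, 5 of the replication fork, 3 of nucleotide supply, 9 regulators of the G1-S transition and 13 genes of G2 and mitosis.

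RNA sequencing was done on HAP1, a near-haploid human cell line derived from a chronic myeloid leukaemia line. The 16 libraries form 4 groups of 4: cells with a deletion of SLC30A10 (SLC30A10_delta), which encodes a manganese exporter, their own SLC30A10+/+ control cells, cells with a deletion of a second gene (here the second knockout), and the wild-type cells set against it (the second control set). All groups were grown in the same medium, with no treatment named in the labels. Each deletion is carried by 1 line identifier, the number of clones is not given, and a clone and its deletion therefore cannot be told apart. No label says that replicates were separate cultures, so p-values measure only the spread between these samples, which may be technical.

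Replication origins are licensed in G1, when ORC and CDC6 load the MCM helicase onto DNA. In S phase CDC45 and the GINS complex turn that helicase on, and polymerases tethered by PCNA copy the strands. Cyclin D and cyclin E with their kinases free E2F factors to switch on the S phase genes, the CDKN1 inhibitors oppose them, and cyclin A, cyclin B and CDK1 then drive entry into mitosis, whose genes are held off early in the cycle by the DREAM complex and switched on in G2 through CHR elements. In bulk RNA, fewer cells in a phase and less RNA per cell cannot be told apart.

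Library totals lay between 16058856 and 16648151 counts, so the limit that a count of 0 allows (3 counts) was 0.181 to 0.187 counts per 1000000 counts of the scaled library (CPM), and the members' counts ran from 50 to 17922 in any library. The targeted gene SLC30A10 was almost silent: it had 6 to 9 counts in the control libraries and 3 to 11 in the libraries labelled knockout (0.472 ± 0.0774 and 0.418 ± 0.217 CPM, SD, n = 4; exact permutation test, two-sided p = 0.686, where 0.0286 is the smallest p possible), so its level does not check the labels. Of the markers of other cell types, 6 haematopoietic genes summed to 0.427 to 0.810 CPM and KRT5 and KRT14 were at 0 counts. The epithelial marker EPCAM, low throughout, fell from 1.22 ± 0.396 to 0.263 ± 0.0316 CPM in the SLC30A10 knockout (log2 fold change −2.18, edgeR adjusted p = 9.43e-06) and differed by 1.00 between the control sets (edgeR adjusted p = 0.00622). Both neuronal markers rose in that knockout, SYP by 0.45 (from 4.03 ± 0.271 to 5.50 ± 0.696 CPM) and RBFOX3 by 0.86 (from 0.807 ± 0.0926 to 1.47 ± 0.162 CPM). VIM, FN1 and CDH2, genes of the adherent mesenchymal state that HAP1 cells show, summed to 870 to 926 CPM in the SLC30A10 control, 484 to 491 in the SLC30A10 knockout, 579 to 742 in the second control and 700 to 904 in the second knockout. The part of these marker differences in the results below was not tested.

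Promoters of the set are shown first because its S phase genes and its mitotic genes differ in the motifs they hold. RefSeq promoters (GRCh38.p14) matched 36 of the 43 members, leaving MCM4, MCM5, CCND1, CCND2, CCNE2, AURKA and BIRC5 without one. The 250 bases before each start were searched on both strands for an E2F motif (TTTCCCGC or TTTGGCGC), the CHR motif TTTGAA and the CCAAT box. Below are the 100 bases before the start, 5′ to 3′ on the gene's own strand, with matches in capitals on whichever strand they lie. The first 4 genes hold an E2F match and act in S phase.
PCNA, chr20:5126623-5126722, minus strand: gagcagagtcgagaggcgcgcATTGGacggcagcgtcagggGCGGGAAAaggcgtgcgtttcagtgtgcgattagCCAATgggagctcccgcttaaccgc
RFC3, chr13:33818049-33818148, plus strand: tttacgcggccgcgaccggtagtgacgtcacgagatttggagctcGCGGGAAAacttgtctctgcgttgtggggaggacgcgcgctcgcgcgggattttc
MCM6, chr2:135876444-135876543, minus strand: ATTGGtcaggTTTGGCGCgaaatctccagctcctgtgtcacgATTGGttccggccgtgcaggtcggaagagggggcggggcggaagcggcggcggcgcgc
TYMS, chr18:657553-657652, plus strand: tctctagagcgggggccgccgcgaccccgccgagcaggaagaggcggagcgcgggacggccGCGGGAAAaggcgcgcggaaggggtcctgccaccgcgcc
The next 4 are mitotic genes with a CHR match.
CCNB2, chr15:59105046-59105145, plus strand: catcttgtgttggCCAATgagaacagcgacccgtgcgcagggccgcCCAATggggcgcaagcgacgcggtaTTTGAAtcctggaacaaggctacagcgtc
PLK1, chr16:23678789-23678888, plus strand: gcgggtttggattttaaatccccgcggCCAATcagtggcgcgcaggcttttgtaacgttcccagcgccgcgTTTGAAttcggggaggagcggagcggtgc
CDC20, chr1:43358881-43358980, plus strand: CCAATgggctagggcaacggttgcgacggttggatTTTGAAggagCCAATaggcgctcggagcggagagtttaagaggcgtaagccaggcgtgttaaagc
BUB1B, chr15:40160969-40161068, plus strand: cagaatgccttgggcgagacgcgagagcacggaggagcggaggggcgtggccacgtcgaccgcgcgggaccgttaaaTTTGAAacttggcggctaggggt

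An E2F motif lay in 9 of the 36 promoters (25%), against 2.36% of 27305 genes with a promoter of the same length. None of the 11 matched G2 and mitosis genes held one, whereas 3 of 5 fork genes and 3 of 11 licensing genes did. CHR was found in 8 of 36 (22.2%, against 16.1% of all genes), and 7 of those 8 were G2 and mitosis genes, 63.6% of that role. CCAAT was found in 26 of 36 (72.2%, against 37%) and in 10 of the 11 G2 and mitosis genes. A match is a description of the letters and not a binding site, and a window without one says nothing of the factor.

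Levels of the set differed widely between genes and little between groups. Per kilobase of exon, in CPM per kilobase in the SLC30A10 control, PCNA, the sliding clamp, was the highest at 151 ± 4.23 (SD, n = 4), followed by the helicase subunit MCM7 (130), topoisomerase TOP2A (128), the anaphase activator CDC20 (128), CCNB1 (127) and MCM3 (104). The lowest was the inhibitor CDKN1A at 1.46 ± 0.37, then GINS3 (5.60), CCNE2 (6.33), CCND1 (6.68), CCND3 (10.8) and CCND2 (11.3). CCNE2 shares 37% of its exon bases with INTS8 on the other strand, which was at 99.4 CPM in that control. Reads of this pair may mix, since the strand setting of the counting is not stated. For each gene the highest of the 4 group means was divided by the lowest: the median of this ratio was 1.13, 30 of 43 genes stayed within 1.2-fold and 15 within 1.1-fold. MCM3 was the flattest (1.03) and CCND1 the most variable (2.07), and only CCND1 and CDKN1A exceeded 1.5. The SD among replicates on the log2 scale was 0.0384 to 0.234 per gene, with a median of 0.0742. The heat map of all 43 genes shows the size of each departure from the gene's own mean, which was small for most genes.

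**Figure D1:**
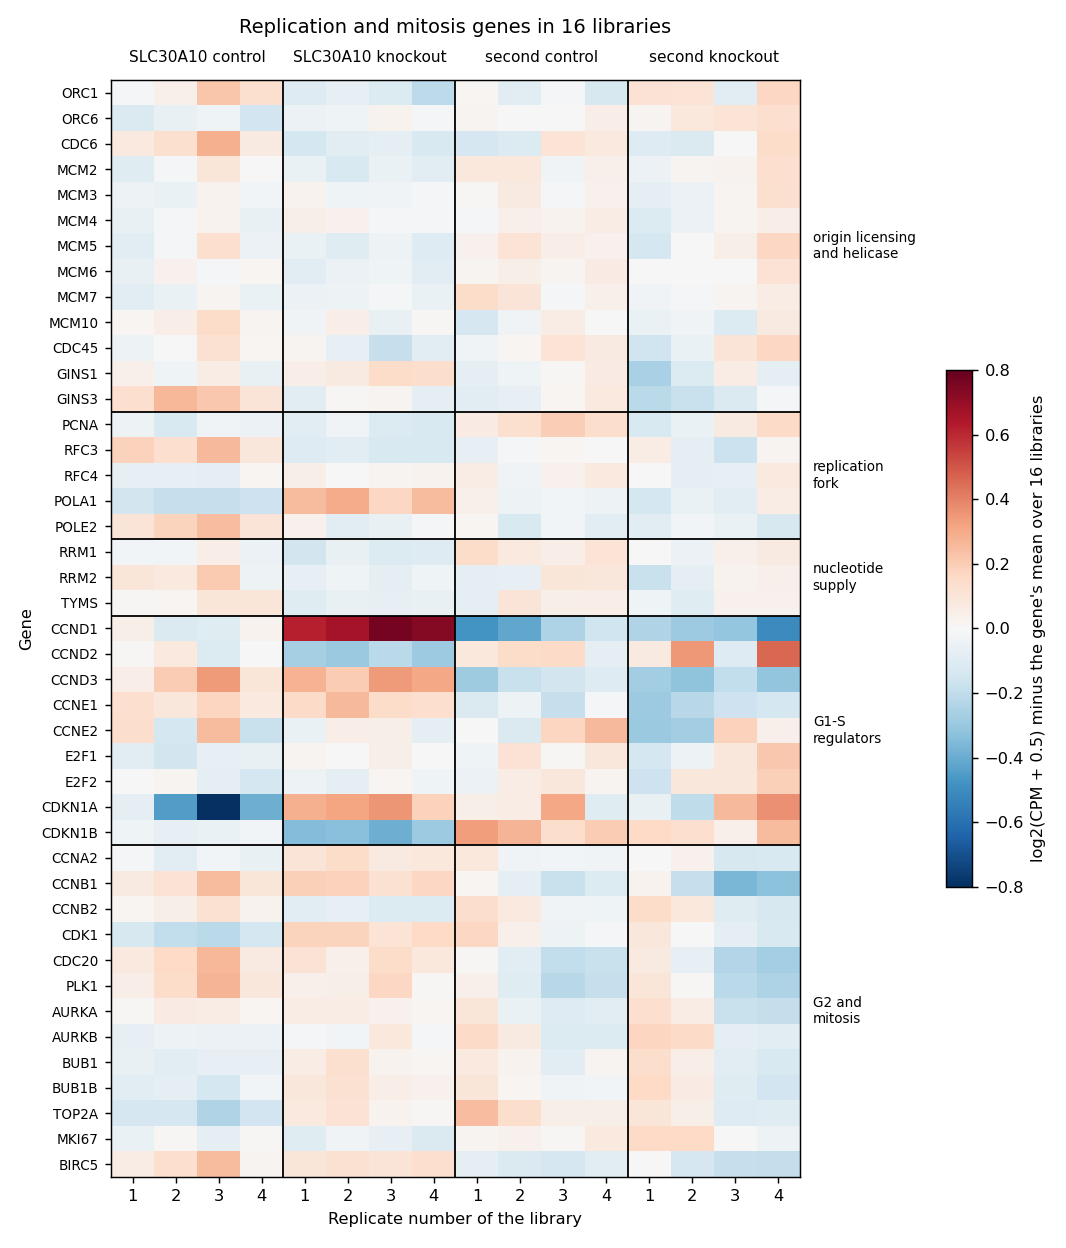
Level of each of the 43 genes (vertical axis, in order of role) in the 16 libraries (horizontal axis, replicate number within each group), as log2(CPM + 0.5) minus the gene's mean over all libraries. Most cells are pale; CCND1 is high in the 4 SLC30A10 knockout libraries, and CDKN1A is low in the SLC30A10 control.

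In the SLC30A10 knockout 19 of the 43 genes changed against its control, 8 higher and 11 lower (edgeR quasi-likelihood test, Benjamini-Hochberg adjusted p under 0.05 over all 15569 genes). Cyclin D1 and the CDK inhibitor CDKN1A rose by more than 1.5-fold, while the inhibitor CDKN1B and cyclin D2 fell. Among genes acting after licensing, POLA1, CDK1 and TOP2A rose and the clamp loader gene RFC3 fell. In this comparison 41.4% of all tested genes were called (21.2% higher, 20.2% lower), so the members' share of 44.2% lies near that background. The changes were small: 12 of the 19 were under 1.2-fold and 2 reached 1.5-fold, as 10.4% of all genes did, the members' median log2 fold change was −0.01 and that of all genes −0.00. Groups did not overlap for 20 of the 43 genes, 46.5%, where 38.3% of all genes did not.

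In origin licensing and helicase, 3 of 13 genes fell (23.1%) and none rose, where 20.2% of all tested genes fell and 21.2% rose. The same background applies to the counts of each role below. ORC1, the largest subunit of the origin recognition complex, was at 64.1, 66.5, 75.5 and 70.8 CPM in the 4 control libraries and 60.1, 61.8, 59.97 and 55.9 in the 4 knockout libraries, all below the controls (log2 fold change −0.22 ± 0.06, SE; edgeR quasi-likelihood adjusted p = 0.00292). CDC6, the loader of the helicase, was at 116, 120.4, 134 and 116 CPM in the controls and 99.99, 104, 104 and 101 in the knockout, again without overlap (−0.25 ± 0.06, edgeR adjusted p = 0.00137). GINS3, a subunit of the active helicase, went from 27.7, 30.4, 29.3 and 27.0 CPM to 23.7, 25.3, 25.5 and 23.8 and did not overlap either (−0.22 ± 0.06, edgeR adjusted p = 0.00595). For MCM2 to MCM7, the ring of the helicase itself, log2 fold changes were between −0.08 and 0.04, and none passed the test. MCM10, CDC45, GINS1 and ORC6 did not pass it either, at −0.07, −0.10, 0.10 and 0.07. The summed CPM of all 13 genes was 2991 to 3245 in the control libraries and 3010 to 3061 in the knockout, the second range inside the first.

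At the replication fork 1 of 5 genes rose and 2 fell. POLA1, the catalytic subunit of the polymerase that lays primers, was at 128, 125, 125 and 126 CPM in the control libraries and 169, 174, 159 and 169 in the knockout. Every knockout library lay far above every control (log2 fold change 0.41 ± 0.04; edgeR quasi-likelihood adjusted p = 7.86e-09). RFC3, a subunit of the complex that loads PCNA, was at 136, 131, 144 and 128 CPM in the controls and 112, 113, 110.4 and 110.1 in the knockout, with no overlap (−0.28 ± 0.05, edgeR adjusted p = 2.18e-05). POLE2, an accessory subunit of the leading-strand polymerase, fell from 45.1 ± 2.20 to 39.5 ± 1.48 CPM (SD, n = 4; −0.19 ± 0.05, edgeR adjusted p = 0.00412). RFC4 (0.07) and PCNA did not pass the test. PCNA was at 222 ± 6.23 CPM in the controls and 217 ± 6.39 in the knockout, a log2 difference of −0.03 with a 95% interval of −0.13 to 0.07.

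The rise of POLA1 was shared by the genes around it. POLA1 lies at X:24693918-24996986 (GRCh38.p14), and the 20 tested genes nearest to it on that chromosome, 10 on either side, had a median log2 fold change of 0.38, with 13 higher and 3 lower. For every other member the median of its neighbours (20, and 16 for TYMS) lay between −0.20 (around MCM6, 1 higher and 11 lower) and 0.12 (around MCM2, 8 higher and 2 lower). Around CCND1 it was 0.02, around CDKN1A −0.03, around CDKN1B −0.09 and around CDK1 −0.10. In the second knockout the neighbours of POLA1 had a median of −0.03 and POLA1 itself was at −0.04. The number of copies of the region was not measured, and its part in the level of POLA1 was not tested.

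All 3 nucleotide supply genes fell, by small amounts. RRM1 and RRM2, the large and small subunits of the ribonucleotide reductase that makes deoxynucleotides, had log2 fold changes of −0.10 ± 0.04 (edgeR quasi-likelihood adjusted p = 0.0407) and −0.14 ± 0.05 (edgeR adjusted p = 0.0299). RRM2 was at 477, 471, 517 and 434 CPM in the controls and 426, 435, 425 and 436 in the knockout, and these ranges overlap. TYMS, thymidylate synthase, was at 92.3, 92.8, 98.4 and 98.3 CPM in the controls and 85.7, 88.2, 87.7 and 88.2 in the knockout, without overlap (−0.13 ± 0.04, edgeR adjusted p = 0.0247). The summed CPM of the 3 genes was 803 to 906 in the controls and 765 to 793 in the knockout. Each of the 3 calls rested on single libraries: without one of several, RRM1 was at −0.10 to −0.07 (edgeR adjusted p = 0.0529 to 0.128; control 1, 2 or 3, knockout 1, 3 or 4), RRM2 at −0.14 to −0.10 (0.0629 to 0.136; control 1 or 3, knockout 1 or 3) and TYMS at −0.12 to −0.11 (0.0596 to 0.0693; control 3 or 4, knockout 1). TYMS also shares 39.1% of its exon bases with ENOSF1 on the other strand, whose mean level went from 74.7 to 56.0 CPM, and reads of such a pair cannot be told apart where counting ignores strand, which is not stated.

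Among the 9 G1-S regulators 2 rose and 2 fell. CCND1, cyclin D1, was at 34.1, 30.5, 30.9 and 33.7 CPM in the 4 control libraries and 51.2, 52.8, 56.6 and 55.4 in the 4 knockout libraries. The lowest knockout library was well above the highest control (log2 fold change 0.74 ± 0.07; edgeR quasi-likelihood adjusted p = 8.55e-10). CCND2, cyclin D2, moved the other way, from 81.6, 85.7, 75.1 and 81.1 CPM to 67.3, 66.0, 69.7 and 66.3, and its groups did not overlap (−0.26 ± 0.08, edgeR adjusted p = 0.00955). CCND3, cyclin D3, was at 57.3, 63.7, 70.3 and 59.3 CPM in the controls and 67.2, 63.8, 70.3 and 68.6 in the knockout, with overlap, and did not pass the test (0.11 ± 0.06, edgeR adjusted p = 0.134). It did pass without control 3, at 0.17 (edgeR adjusted p = 0.0138). Per kilobase of exon the D cyclins stood at 6.68 (CCND1), 11.3 (CCND2) and 10.8 (CCND3) CPM in the control, and at 11.2, 9.41 and 11.6 in the knockout.

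The 2 CDK inhibitors changed in opposite directions. CDKN1A, which encodes p21, was at 5.79, 4.37, 3.05 and 4.57 CPM in the controls and 7.58, 7.77, 7.97 and 7.04 in the knockout, low throughout but without overlap (0.77 ± 0.15, edgeR quasi-likelihood adjusted p = 0.000154). CDKN1B, which encodes p27, was at 94.5, 92.3, 93.2 and 95.3 CPM in the controls and 76.2, 76.8, 73.8 and 79.2 in the knockout, where all 4 libraries were lower (−0.30 ± 0.05, edgeR adjusted p = 1.43e-05). CCNE1 (0.06), CCNE2 (−0.04), E2F1 (0.11) and E2F2 (0.01), the E cyclins and activating E2F factors, did not pass the test. The plot of 6 genes by library shows the cyclin D genes, both inhibitors and POLA1 in all groups.

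**Figure D2:**
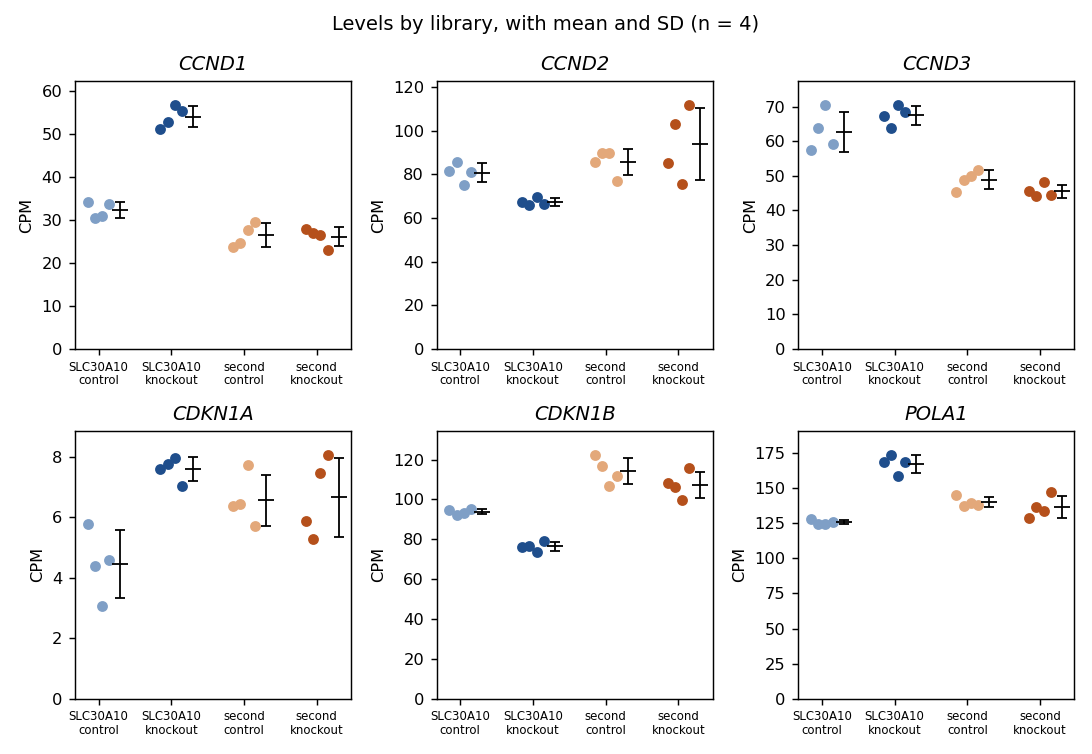
CPM (vertical axis, from 0) of CCND1, CCND2, CCND3, CDKN1A, CDKN1B and POLA1 in the 4 libraries of each group (points), with the mean and SD (black bar, n = 4). CCND1 and POLA1 are highest in the 4 SLC30A10 knockout libraries and CDKN1B is lowest there, while the level of CDKN1A in that knockout lies near both second groups.

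In G2 and mitosis 5 of 13 genes rose and 1 fell. CDK1, the kinase that drives mitotic entry, was at 223, 212, 209 and 220.3 CPM in the controls and 275, 275, 262 and 272 in the knockout, with every knockout library above every control (log2 fold change 0.33 ± 0.05; edgeR quasi-likelihood adjusted p = 1.9e-06). TOP2A, the topoisomerase that untangles sister chromatids, was at 842, 845, 784 and 833 CPM and then 976, 1003, 944 and 933, also without overlap (0.22 ± 0.05, edgeR adjusted p = 0.00039). CCNA2, cyclin A2, rose from 251 ± 6.16 to 277 ± 6.25 CPM (SD, n = 4; 0.15 ± 0.04, edgeR adjusted p = 0.00474), and 9.08% of its exon bases overlap EXOSC9 on the other strand. The spindle checkpoint genes BUB1 (0.13 ± 0.05, edgeR adjusted p = 0.0349) and BUB1B (0.16 ± 0.05, edgeR adjusted p = 0.0144) rose as well. BUB1 lost its call without SLC30A10 control 1, 2 or 4 or knockout 1 or 2, at 0.10 to 0.13 (edgeR adjusted p = 0.0517 to 0.114).

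CCNB2, one of the B cyclins that partner CDK1, was the mitotic gene that fell, from 203, 208, 218 and 205 CPM to 189, 191, 186 and 186 (−0.15 ± 0.05, edgeR quasi-likelihood adjusted p = 0.0221). Without control 3 or knockout 3 it was at −0.14 to −0.12 (edgeR adjusted p = 0.0507 to 0.0653). The kinases PLK1 (−0.08), AURKA (0.00) and AURKB (0.06), and CDC20 (−0.05), CCNB1 (0.03), BIRC5 (−0.01) and the proliferation marker MKI67 (−0.05) did not pass the test. Summed over the role, the 4 knockout libraries (4347 to 4529 CPM) lay above the 4 controls (4183 to 4271 CPM). By promoter letters, the 8 genes with a CHR match held 3 higher and 2 lower genes, the 9 with an E2F match 1 higher and 2 lower, and the 26 with a CCAAT box 5 higher and 6 lower, where 21.2% of all tested genes were higher and 20.2% lower. The plot of fold changes by gene places these values beside those of the second knockout.

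**Figure D3:**
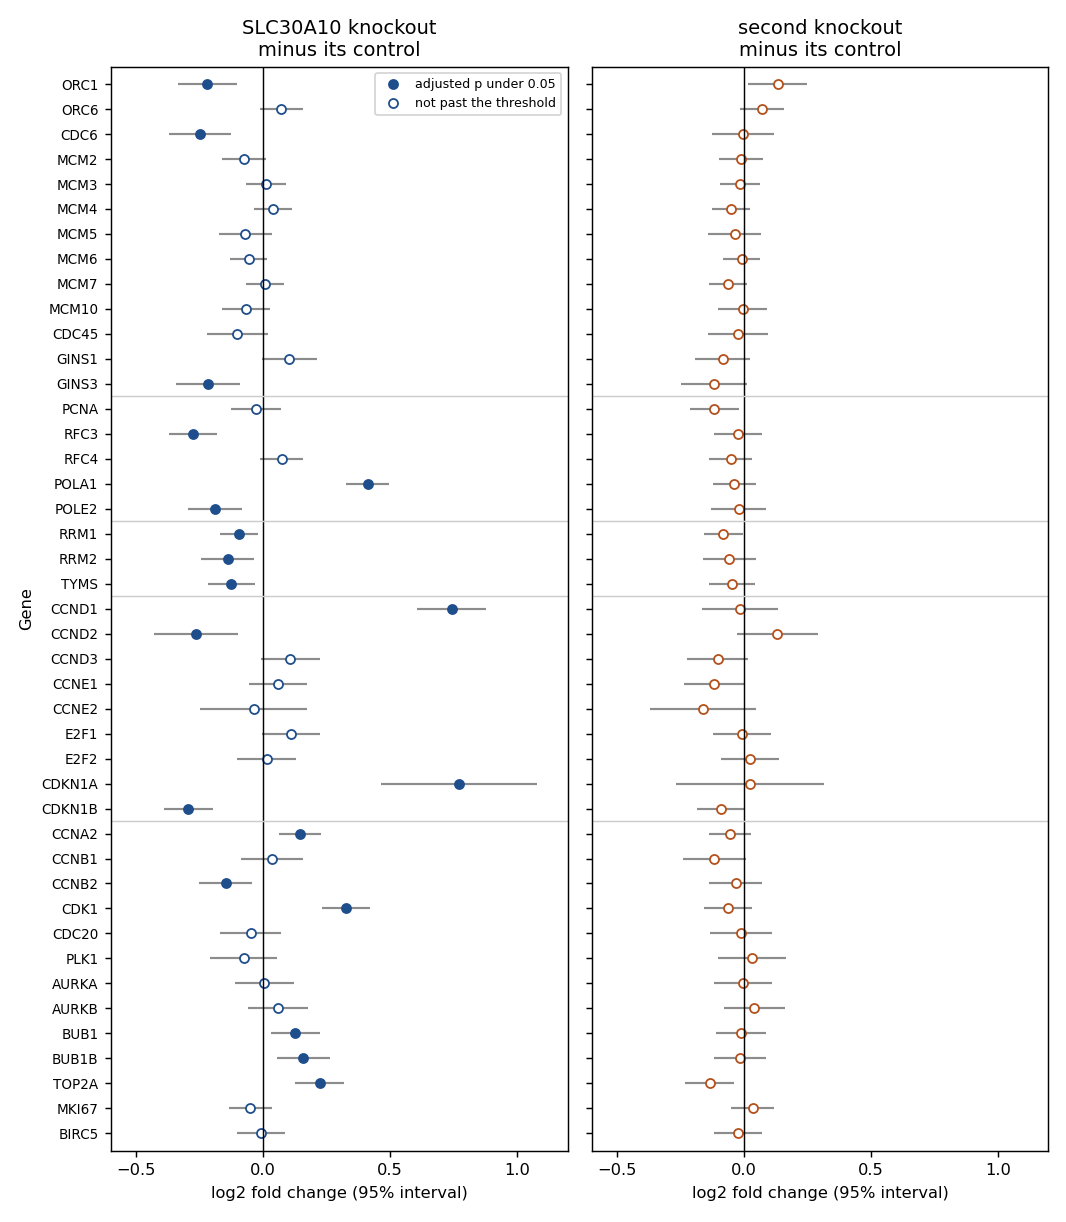
Log2 fold change of each of the 43 genes (horizontal axis, with 95% interval) in each knockout against its own control, with genes in order of role on the vertical axis. Filled points passed an adjusted p of 0.05: 19 for the SLC30A10 knockout, led by CDKN1A (0.77) and CCND1 (0.74), and 0 for the second knockout.

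In the second knockout none of the 43 genes passed the test (edgeR quasi-likelihood, Benjamini-Hochberg), and 5 had an unadjusted p under 0.05: ORC1, PCNA, RRM1, CCNE1 and TOP2A. DESeq2 called 0 as well. In this comparison 13.7% of all tested genes were called (6.67% higher, 7.03% lower), 25.9% had an unadjusted p under 0.05, and the groups of 16.3% of all genes did not overlap, against 0 of the 43. The estimates ran from −0.16 (CCNE2) to 0.13 (ORC1), with a median of −0.02, and 35 of the 43 were below 0. Of all 15569 tested genes 7896 were below 0, with a median of −0.00. All 43 of the 95% intervals lay inside a 1.5-fold change in either direction.

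CCND1 was at 23.6, 24.7, 27.7 and 29.6 CPM in the second control set and 27.9, 27.0, 26.5 and 23.1 in the second knockout, overlapping ranges with a log2 difference of −0.02 and a 95% interval of −0.17 to 0.13. CDKN1A was at 6.36, 6.43, 7.71 and 5.71 CPM in the controls and 5.86, 5.27, 7.45 and 8.05 in the knockout, with a difference of 0.02 and an interval of −0.27 to 0.32. TOP2A came closest to a call, at 1096, 1022, 958 and 955 CPM in the controls and 991, 955, 863 and 864 in the knockout (−0.13 ± 0.05, edgeR quasi-likelihood adjusted p = 0.0558). Its groups overlap, and it passed without second control 3 (−0.15, edgeR adjusted p = 0.0409), second control 4 (−0.16, 0.0404) or second knockout 1 (−0.17, 0.0165), and with no filter on low counts (−0.14, 0.00618). Each knockout library was below the control library of the same number. With a block for the replicate number TOP2A passed as well (−0.13, edgeR adjusted p = 0.00629). CCND2 was uneven in the second knockout, at 85.1, 103, 75.5 and 112 CPM against 85.9, 89.96, 90.03 and 77.2 in its controls, and 2 of its libraries exceeded every control. It had a log2 difference of 0.13 (edgeR adjusted p = 0.305), which became 0.22 (edgeR adjusted p = 0.0234) without knockout 3. CCND3 was at 45.5, 44.1, 48.1 and 44.3 CPM in the second knockout and 45.4, 48.7, 49.96 and 51.6 in its controls (−0.10, edgeR adjusted p = 0.279). CDKN1B was at 108, 106, 99.8 and 116 CPM in the knockout and 122, 117, 107 and 112 in the controls (−0.09, edgeR adjusted p = 0.219). Both pairs of ranges overlap. Leaving out 1 library gave 0 to 2 calls over the 43 genes.

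Summed by role, the second knockout's 4 libraries spread more than those of the SLC30A10 knockout. For G2 and mitosis they held 4629, 4433, 3967 and 3914 CPM, and 4611, 4374, 4160 and 4249 in the second control set. For licensing and helicase they held 2969, 3064, 3148 and 3324 CPM in the knockout and 3180, 3226, 3141 and 3207 in the controls. The 2 knockout libraries with the highest mitotic sums thus had the lowest licensing sums. The groups overlapped for both roles, as the plot of role sums shows, and a sum follows its most abundant genes.

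**Figure D4:**
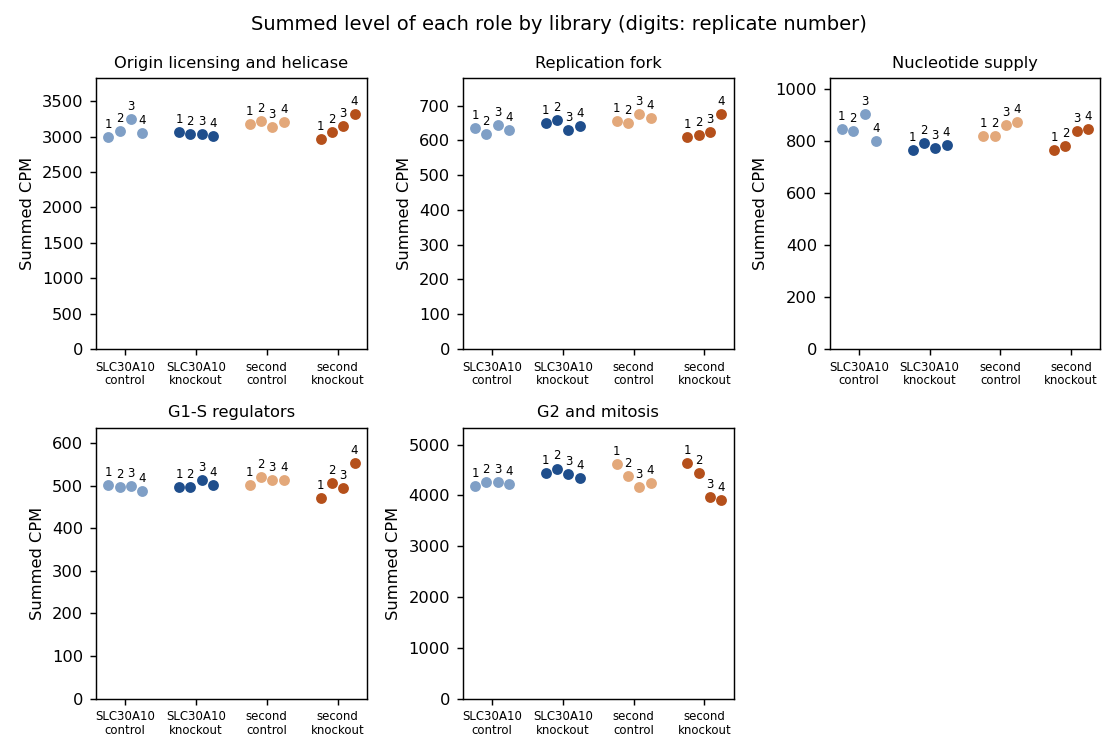
Summed CPM (vertical axis, from 0) of the genes of each role in every library, with the replicate number beside each point and groups on the horizontal axis. For G2 and mitosis the 4 SLC30A10 knockout libraries (4347 to 4529) are above their controls (4183 to 4271), and the second knockout runs from 3914 to 4629.

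Whether the knockouts moved differently was tested as the SLC30A10 knockout's log2 fold change minus that of the second knockout, each against its own controls. Of the 43 genes 11 passed, 6 with the higher value in the SLC30A10 knockout and 5 with the lower, where 31.3% of all tested genes did (16.7% higher, 14.6% lower). CCND1 (0.76 ± 0.10, SE; edgeR quasi-likelihood adjusted p = 9.64e-07), CDKN1A (0.75 ± 0.21, 0.00661), POLA1 (0.45 ± 0.06, 1.15e-06), CDK1 (0.39 ± 0.06, 3.38e-05), TOP2A (0.36 ± 0.07, 0.000139) and CCNA2 (0.20 ± 0.06, 0.00772) were higher. CCND2 (−0.40 ± 0.11, 0.00773), ORC1 (−0.35 ± 0.08, 0.0013), RFC3 (−0.25 ± 0.07, 0.0036), CDC6 (−0.25 ± 0.08, 0.0265) and CDKN1B (−0.21 ± 0.07, 0.0185) were lower, all by the same edgeR test. CDC6 lost its call without SLC30A10 control 3, SLC30A10 knockout 1, second control 1, second control 2 or second knockout 4, at −0.24 to −0.20 (edgeR adjusted p = 0.0508 to 0.0651). CCND3 (0.21, edgeR adjusted p = 0.0506) did not pass, but did without SLC30A10 control 3 (0.27, 0.00613), SLC30A10 knockout 2 (0.24, 0.0382), second control 1 (0.24, 0.0286) or second knockout 3 (0.24, 0.0308), and with no filter (0.21, 0.0419). For 8 of the 43 genes, those called in the SLC30A10 knockout and not here, a difference from the second knockout was not shown: GINS3, POLE2, RRM1, RRM2, TYMS, CCNB2, BUB1 and BUB1B. Of these, BUB1B passed without second knockout 1 (0.22, edgeR adjusted p = 0.0089) and with no filter (0.17, 0.0247), BUB1 without second knockout 1 (0.18, 0.0304) and POLE2 with library totals as the scaling (−0.20, 0.0421).

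The 2 control sets, each wild-type by its label, differed in 21 of the 43 genes, 12 higher and 9 lower in the SLC30A10 control (39.3% of all tested genes were called, 18.5% higher and 20.8% lower), and none of the 43 reached 1.5-fold, whereas 5.64% of all genes were called at that size. Groups did not overlap for 17 of the 43 (39.5%, against 36.3% of all genes). CCND3 was at 57.3, 63.7, 70.3 and 59.3 CPM in the SLC30A10 control and 45.4, 48.7, 49.96 and 51.6 in the second, without overlap (log2 difference 0.36 ± 0.06; edgeR quasi-likelihood adjusted p = 2.92e-05). CCND1 (0.29 ± 0.07, edgeR adjusted p = 0.00203) was also higher in the SLC30A10 control. So were 4 mitotic genes. PLK1, a kinase of spindle assembly, was at 316, 339, 369.6 and 325 CPM in the SLC30A10 control and 313, 286, 261 and 268 in the second (0.26 ± 0.06, edgeR adjusted p = 0.00257). CDC20 was at 249, 263, 284 and 248 CPM in the first set and 237, 222, 206 and 208 in the second (0.26 ± 0.06, edgeR adjusted p = 0.00123). BIRC5, which encodes survivin of the chromosomal passenger complex, was at 200.03, 211, 229 and 195 CPM in the first set and 183, 177, 175 and 181 in the second (0.22 ± 0.05, edgeR adjusted p = 0.000411). None of these 3 overlapped between the control sets. CCNB1, cyclin B1, differed by 0.22. The rest of the genes higher in the SLC30A10 control were ORC1, CDC6, GINS3, RFC3, POLE2 and CCNE1. All of these except CCNE1 were called lower in the SLC30A10 knockout. ORC1 and CDC6 each did not pass without any 1 of 4 libraries (edgeR adjusted p = 0.0625 to 0.128 and 0.0549 to 0.149). Of the 43 genes, 12 were called both between the control sets and in the SLC30A10 knockout, 9 of them in opposite directions. The SLC30A10 control libraries stand on opposite sides of these comparisons, so opposite directions are favoured by construction. The same count over all tested genes is not given here.

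On the lower side in the SLC30A10 control were CDKN1A (−0.56 ± 0.15, edgeR quasi-likelihood adjusted p = 0.00488), TOP2A (−0.29 ± 0.05, edgeR adjusted p = 3.29e-05) and CDKN1B (−0.29 ± 0.05, edgeR adjusted p = 3.05e-05). CDK1 was at 273, 249.98, 236 and 241 CPM in the second control set, all above the SLC30A10 control libraries (−0.21 ± 0.05, edgeR adjusted p = 0.000695). PCNA was at 225, 212, 226 and 224 CPM in the SLC30A10 control and 242, 252, 265 and 254 in the second, again without overlap (−0.19 ± 0.05, edgeR adjusted p = 0.00208). The rest of the lower genes were POLA1 (19.9 against 22.1 CPM per kilobase of exon), MCM7, RRM1 and ORC6. ORC6 lost its call under DESeq2 (−0.10, adjusted p = 0.0758) and without any 1 of 7 libraries (edgeR adjusted p = 0.0707 to 0.179). MCM7 lost it without any 1 of 3 libraries (edgeR adjusted p = 0.0564 to 0.0792) and RRM1 without any 1 of 5 (0.0676 to 0.107).

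This comparison and both knockout comparisons share control samples, so levels in all 4 groups are given side by side. CDKN1A was at 4.44 ± 1.12 CPM in the SLC30A10 control, 7.59 ± 0.402 in the SLC30A10 knockout, 6.55 ± 0.838 in the second control and 6.66 ± 1.31 in the second knockout (SD, n = 4 each). TOP2A stood at 826 ± 28.6, 964 ± 31.6, 1008 ± 66.8 and 918 ± 64.9 CPM in the same order, so that its SLC30A10 knockout level lies between the second groups. CDK1 was at 216 ± 6.28, 271 ± 5.95, 250.2 ± 16.2 and 239.5 ± 15.3 CPM. CCND1, at 32.3 ± 1.87, 54.0 ± 2.44, 26.4 ± 2.75 and 26.1 ± 2.10 CPM, and CDKN1B, at 93.8 ± 1.32, 76.5 ± 2.21, 114 ± 6.72 and 107 ± 6.49 CPM, were respectively highest and lowest in the SLC30A10 knockout of all 4 groups. Per kilobase of exon, in the same order, GINS3 was at 5.60, 4.82, 4.88 and 4.50 CPM and POLE2 at 15.3, 13.4, 13.2 and 13.0. Their SLC30A10 knockout levels thus lay near both second groups. ORC1 (21.9, 18.8, 19.8 and 21.7), CDC6 (21.9, 18.4, 19.7 and 19.6) and RFC3 (47.0, 38.7, 41.3 and 40.6) were lowest in the SLC30A10 knockout of all 4 groups.

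Against the 8 control libraries pooled, the SLC30A10 knockout kept 14 of its 19 calls, where 6666 of all 15569 tested genes were called. The log2 fold changes (edgeR quasi-likelihood) were then 0.89 for CCND1, 0.49 for CDKN1A (adjusted p = 0.00214), 0.33 for POLA1, 0.22 for CDK1 and −0.44 for CDKN1B. TOP2A (0.08, edgeR adjusted p = 0.118), BUB1 (0.09, 0.0905), GINS3 (−0.12, 0.0786), POLE2 (−0.08, 0.136) and RRM2 (−0.10, 0.0629) lost their calls. CCND3 gained one, at 0.29 (edgeR adjusted p = 3.05e-05), together with BIRC5, CCNB1, CCNE1, MCM2, MCM6 and PCNA. Against the same pooled controls 11 genes were called in the second knockout, 2 higher (ORC6 at 0.12, CCND2 at 0.17) and 9 lower, among them CCND3 (−0.28, edgeR adjusted p = 0.000116) and CCND1 (−0.16, edgeR adjusted p = 0.0465). Of all 15569 tested genes 5341 were called in that comparison.

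A wider list of 119 tested genes of the same pathways, none of them among the 43, was read in the same way. In the SLC30A10 knockout 23 rose and 24 fell, 39.5% of the list where 41.4% of all genes were called, and the list's median was 0.03 where that of all genes was −0.00. By role, 16 of 42 G2 and mitosis genes rose and 3 fell, 3 of 27 fork genes rose and 10 fell, and 2 of 14 licensing genes rose and 5 fell. Of all tested genes 21.2% rose and 20.2% fell. Between the control sets, 1 of the 42 G2 and mitosis genes was higher and 19 lower in the SLC30A10 control. For the 27 fork genes these counts were 5 and 11, and for the 14 licensing genes 3 and 3. Nucleotide supply had 2 higher and 3 lower of 7, and the G1-S list 0 higher and 3 lower of 29. Against the pooled controls, NUF2, KIF23, NUSAP1, INCENP, FBXO5, NEK2 and NCAPH lost their calls (0.02 to 0.12, edgeR adjusted p = 0.0774 to 0.628). Among G2 and mitosis genes, CDCA8 and CEP55 then gained a call as higher and CENPF and SMC2 as lower. Of the fork genes, POLE, FEN1, RNASEH2A, WDHD1 and UHRF1 lost their calls and PRIM2 and POLD3 gained one as lower. Among those most changed, NDC80, a kinetochore subunit that binds microtubules, rose from 139.8 ± 12.0 to 236 ± 9.04 CPM (0.75 ± 0.05, edgeR quasi-likelihood adjusted p = 5.61e-12). CDC25B, a phosphatase that activates CDK1, rose by 0.45 ± 0.04 (edgeR adjusted p = 3.07e-09), and CENPA, the centromeric histone, by 0.40 ± 0.05 (edgeR adjusted p = 5.3e-07). The licensing factor CDT1 (−0.38 ± 0.06, edgeR adjusted p = 1.61e-05) and the repressor E2F7 (−0.37 ± 0.05, edgeR adjusted p = 2.99e-06) fell. GINS2, a partner of GINS3, fell furthest, from 112 ± 6.01 to 71.9 ± 1.91 CPM (−0.64 ± 0.05, edgeR adjusted p = 4.02e-11). GINS2 (16:85676198-85688954) and CDT1 (16:88803789-88809258) had neighbours that were also lower, with medians of −0.54 (0 higher, 15 lower) and −0.57 (2 higher, 17 lower) over 20 genes, and the part of this in their levels was not tested.

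In the second knockout 4 of the 119 genes rose and 5 fell, 7.56% where 13.7% of all genes were called. NDC80 rose here too, from 192 ± 6.64 to 267 ± 17.2 CPM (0.48 ± 0.05, edgeR quasi-likelihood adjusted p = 6.57e-08), and the control sets themselves differed in it by −0.46 (edgeR adjusted p = 2.7e-07). MYC, a growth-promoting transcription factor, rose from 1494 ± 53.6 to 2009.7 ± 207 CPM (0.43 ± 0.07, edgeR adjusted p = 6.73e-05). The repressor E2F8 rose by 0.30 ± 0.04 (edgeR adjusted p = 6.48e-06), while in the SLC30A10 knockout it fell by 0.26 (edgeR adjusted p = 3.54e-05). SAMHD1, which breaks down deoxynucleotides, fell by 0.26 ± 0.05 (edgeR adjusted p = 0.00115), as did GINS2 (−0.18, 0.0138) and the primase subunit PRIM2 (−0.17, 0.0374). GINS2 lost its call without second control 4 or second knockout 1 or 2, at −0.15 to −0.14 (edgeR adjusted p = 0.0637 to 0.0828). PRIM2 lost it without any single library other than second knockout 1, at −0.18 to −0.14 (edgeR adjusted p = 0.0509 to 0.113), and under DESeq2 (−0.17, adjusted p = 0.0792), edgeR with no filter (−0.18, 0.105), library totals as the scaling (−0.16, 0.0515), a fit of only the libraries compared (−0.17, 0.0687) and pooled controls (−0.12, 0.0646). Between the control sets 16 of the 119 were higher and 44 lower in the SLC30A10 control, 50.4% where 39.3% of all genes were called, and in G2 and mitosis 1 was higher and 19 lower. The difference between the knockouts' effects was called for 19 genes upward and 13 downward (26.9%, where 31.3% of all genes were called).

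Because CDKN1A is a target of p53, other p53 targets were read beside it, and 15 of 17 passed the filter. In the SLC30A10 knockout 4 rose and 1 fell, 33.3% where 41.4% of all genes were called. PHLDA3, an AKT inhibitor, rose from 2.01 ± 0.423 to 5.30 ± 0.454 CPM (1.40 ± 0.15, edgeR quasi-likelihood adjusted p = 1.55e-08), BTG2 by 0.44, FAS by 0.42 and FDXR by 0.18, while TP53I3 fell by 0.50. FAS lost its call without control 1 or 3 or knockout 2 or 4 (0.30 to 0.40, edgeR adjusted p = 0.0629 to 0.145), and FDXR without control 1, 2 or 3 or knockout 3 or 4 (0.13 to 0.18, 0.0709 to 0.168). Against the pooled controls TP53I3 (−0.26, edgeR adjusted p = 0.0913) and FDXR (0.063, edgeR adjusted p = 0.421) did not pass. In that fit SESN2 (−0.61, edgeR adjusted p = 0.0228) and DDB2 (−0.30, 0.000466) gained a call as lower and AEN (0.30, 9.14e-05) as higher. In the second knockout SESN2 was the 1 gene to pass (0.66 ± 0.21, edgeR adjusted p = 0.0367), and without second control 1, 3 or 4 or second knockout 2 or 4 it did not (0.27 to 0.71, edgeR adjusted p = 0.0530 to 0.295). Between the control sets 3 of the 15 were higher and 5 lower in the SLC30A10 control, where 18.5% of all genes were higher and 20.8% lower.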

How the data were processed

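RNA from 16 HAP1 libraries (4 groups of 4) was poly-A selected and sequenced, per the labels' protocols. The deposited values are raw read counts per gene, made by the authors; HISAT2, featureCounts, DESeq2 and the builds hg38 and GRCh38 are named in the submitters' processing notes, and versions, annotation and strand setting are not given in the sources used here. Counts of genes with shared exons on opposite strands may therefore mix. No column of another series was in the table (0 found), and each column was matched to its sample by name. The name of the second deleted gene is not reported here.

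Counts were filtered (filterByExpr, minimum count 10, minimum total 15), scaled by TMM and fitted with edgeR 4.0.16 (R 4.3.3; limma 3.58.1) in 1 model of 4 group means over 16 libraries, with a common biological coefficient of variation of 0.0497. Quasi-likelihood F tests gave 4 contrasts: each knockout against its control, the difference of both effects, and the control sets. P-values were Benjamini-Hochberg adjusted over 15569 genes, with calls at an adjusted p under 0.05. SE is the absolute log2 fold change divided by the square root of F. CPM is counts per 1000000 counts of the TMM-scaled library, and levels between genes were compared per kilobase of exon (GENCODE 29). Promoters, motifs and neighbours came from RefSeq GRCh38.p14, where 14133 tested genes (90.8%) were placed; Python 3.11.15, pandas 2.3.3 and matplotlib 3.10.9 were used. The fit was tested on simulated data.

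The members, roles and gene lists were chosen with earlier results of these data known. All 43 members could be named; library values are given for the 5 largest rises and falls per contrast, the D cyclins and the inhibitors, and other pathway genes are the 3 largest rises and falls per knockout. Alternatives were 2 other scalings, DESeq2 1.42.0, other filters and thresholds, fits of only the libraries compared, each library left out, a replicate block and pooled controls. The 95% intervals of fold changes come from the edgeR fit and include the spread between replicates, while the limit that a count of 0 allows covers counting error only.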

Additional observations from a re-analysis of the deposited data

Results flagged for a closer look

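For 11 genes of the set the knockouts' log2 fold changes, each against its own control set, differed by the interaction term of the edgeR quasi-likelihood fit. This is 25.6% of the 43, where 31.3% of all tested genes were called. All 11 except CCND2 and CCNA2 were also called between the control sets, and each deletion is carried by 1 line identifier. The interaction and the control-set comparison use the same control libraries, so their calls are not independent. The SLC30A10 knockout had the higher log2 fold change, by 0.76 for CCND1, 0.75 for CDKN1A, 0.45 for POLA1, 0.39 for CDK1, 0.36 for TOP2A and 0.20 for CCNA2. It had the lower one for 5 genes, with differences of −0.40 for CCND2, −0.35 for ORC1, −0.25 for RFC3, −0.25 for CDC6 and −0.21 for CDKN1B.

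PCNA had 1 library apart from its group: SLC30A10 control 2 was at 212 CPM and the other 3 at 224 to 226, a gap of 0.844 of the group's range, above the critical value of Dixon's test at 95% for 4 libraries. Chance sets apart about 1 in 20 groups, so that 4.2 of the 84 groups looked at would be, and this was the only one.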

How the results depend on the processing

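The SLC30A10 knockout's 19 calls stayed between 13 and 21 under all alternatives other than a minimum fold of 1.5, which left 2, and all 19 were kept under both other scalings. Leaving out 1 library gave 15 to 18 calls there, 0 to 2 in the second knockout, 10 to 14 (of 11) for the difference and 17 to 20 (of 21) between the control sets. The second knockout's 0 became 2 with no filter (CCNB1 and TOP2A), 1 with a replicate block (TOP2A, −0.13, edgeR adjusted p = 0.00629) and 11 against pooled controls (2 higher, 9 lower). Of all 15569 tested genes, 2132 were called in that knockout against its own controls and 5341 against pooled controls. At 1.5-fold the difference held 2 and the control sets 0.

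Of the 119 pathway genes, the SLC30A10 knockout's 47 calls were 31 at an adjusted p under 0.01 and 2 at 1.5-fold, with 39 to 48 over left-out libraries. The second knockout's 9 were 4 at 0.01, 0 at 1.5-fold, 5 in a fit of only the libraries compared, 33 against pooled controls (14 higher, 19 lower) and 4 to 11 over left-out libraries. Against pooled controls 5341 of all 15569 tested genes were called in that knockout. The difference's 32 were 20 at 0.01, 1 at 1.5-fold and 26 to 34 over left-out libraries, and the control sets' 60 were 0 at 1.5-fold and 53 to 62 over left-out libraries. Of the p53 targets, the SLC30A10 knockout's 5 were 3 under DESeq2, 3 at 0.01, 1 at 1.5-fold and 3 to 6 over left-out libraries. The second knockout's 1 was 0 under DESeq2, at 0.01, with only the libraries compared and with the replicate block, 2 with no filter, 9 against pooled controls (5 higher, 4 lower) and 0 to 2 over left-out libraries. The difference's 2 were 4 with no filter, 1 at 1.5-fold and 2 to 4 over left-out libraries. The control sets' 8 were 3 at 1.5-fold and 7 to 8 over left-out libraries. The cause of these shifts was not tested, beyond the fewer libraries or stricter threshold that an alternative has by construction.

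Of 962 values of single genes under alternatives, 880 kept direction and side of the threshold, 63 lost a call, 12 gained one and 7 changed sign. All 7 are genes not called in the second knockout: CCND1 ran from −0.0640 to 0.0443 over left-out libraries and was above 0 without second control 3, second control 4 or second knockout 4. CDKN1A ran from −0.0769 to 0.125 and was below 0 without second control 4, second knockout 3 or second knockout 4. CDKN1B was 0.0527 against pooled controls. Members outside these results also changed sign against the pooled controls. In the SLC30A10 knockout they were MCM3, MCM7, E2F2, CDC20, PLK1 and BIRC5. Of these BIRC5 was then called, at 0.10 (edgeR adjusted p = 0.0365). In the second knockout they were MCM2, MCM3, MCM6, POLA1, E2F1, CDK1, PLK1, BUB1, BUB1B and TOP2A, and none was called.

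Over all tested genes the deviations of same-numbered libraries were close to uncorrelated. Mean correlations were −0.03 for the SLC30A10 pair, 0.05 for the second pair and 0.02 for the control sets. Such a mean over all genes cannot exclude a pairing in single genes, and TOP2A was lower in every same-numbered pair of the second experiment. With the replicate block the members called were 19, 1, 14 and 20 for the SLC30A10 knockout, the second knockout, the difference and the control sets. The difference gained CCND3 (adjusted p = 0.0381), BUB1B (0.0215) and GINS1 (0.0325), and PRIM2 in the second knockout lost its call (0.0631). Depth limits CDKN1A most, since it had the lowest counts of the set. The main limits are 1 line identifier per deletion, replicates whose origin is not given, and control sets that differ from each other in 21 members where the SLC30A10 knockout differs from its control in 19.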

Other observations

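Subunits of 3 protein complexes, chosen after their values were seen, moved unevenly in the SLC30A10 knockout. In the GINS complex, which joins CDC45 and the MCM ring in the active helicase, GINS2 (−0.64 ± 0.05), GINS3 (−0.22 ± 0.06) and GINS4 (−0.16 ± 0.06) fell (edgeR quasi-likelihood adjusted p = 4.02e-11, 0.00595 and 0.0237), and GINS1 was at 0.10 ± 0.05 (edgeR adjusted p = 0.121). Of the 20 neighbours of GINS2, 15 were lower and 0 higher, with a median of −0.54, and their part in its level was not tested. GINS4 lost its call without SLC30A10 control 1 or 3 or knockout 1, 2 or 4, at −0.16 to −0.12 (edgeR adjusted p = 0.0521 to 0.0927). Against the pooled controls neither GINS3 (−0.12, edgeR adjusted p = 0.0786) nor GINS4 (−0.11, 0.0687) passed. In the NDC80 complex, which couples kinetochores to microtubules, NDC80 (0.75 ± 0.05), SPC24 (0.38 ± 0.07) and NUF2 (0.16 ± 0.05) rose (edgeR adjusted p = 5.61e-12, 8.7e-05 and 0.0114) and SPC25 was at −0.04 ± 0.10 (edgeR adjusted p = 0.786). In the second knockout NDC80 rose (0.48 ± 0.05) and the other 3 subunits, SPC24 (−0.06), NUF2 (−0.08) and SPC25 (−0.19), did not pass the test. Of the ribonucleotide reductase subunits, RRM2B, the p53-inducible small subunit, rose by 0.30 ± 0.06 (edgeR adjusted p = 0.00027), where RRM1 was at −0.10 and RRM2 at −0.14.

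NDC80, NUF2, SPC24 and RRM2B were also lower in the SLC30A10 control than in the second control set, at −0.46, −0.25, −0.38 and −0.22 (edgeR quasi-likelihood adjusted p = 2.7e-07, 0.000286, 0.000152 and 0.00576). The rise of SPC24 in the SLC30A10 knockout was of the same size as its difference between the control sets. RRM2B was at 36.0, 34.6, 31.2 and 33.7 CPM in the SLC30A10 control, 43.6, 42.8, 37.9 and 43.1 in its knockout, 41.4, 37.9, 40.1 and 38.8 in the second control set and 40.5, 38.9, 35.0 and 41.8 in the second knockout. Against the 8 pooled control libraries NUF2 was at 0.03 (edgeR adjusted p = 0.536) and no longer passed.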
